A study of Homo sapiens with 18 samples.

Results

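The transcripts of 44 DNA repair genes were followed in JEKO1 and MAVER, 2 human mantle cell lymphoma lines (a B cell cancer), after 6 h with drug or solvent. The members are a fixed list of mismatch repair, base and nucleotide excision repair, homologous recombination, Fanconi anemia, end joining and checkpoint kinase genes. The list was chosen with earlier results of these data known. They were taken by gene symbol from the 25369 genes listed in each of 2 tables of normalized counts, 1 table per line. All 44 were listed in both tables, and all 44 passed the filter for testing, a mean of at least 10 normalized counts over the libraries of a table. The 18 RNA-seq libraries form 6 groups of 3 replicates (A, B and C): JEKO1 with IB or DMSO, and MAVER with PU, KPT, IB or DMSO. DMSO is the solvent. The series description names ibrutinib at 0.4 µM and selinexor at 1.5 µM, and IB and KPT were taken to be these drugs. Ibrutinib blocks BTK, a kinase downstream of the B cell receptor, and selinexor blocks the nuclear export receptor XPO1. What PU stands for, and its dose, could not be read from the labels, so the name is kept as it is. Each line is a single established cell line, so no result reaches beyond these cells.

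Cells mend DNA through separate routes. Mismatch repair removes wrongly paired bases behind the replication fork. Base excision repair cuts out single damaged bases, such as uracil, and nucleotide excision repair removes bulky lesions. Homologous recombination mends double-strand breaks with the sister chromatid as template, the Fanconi anemia pathway unhooks crosslinked strands, and end joining seals breaks directly. The kinases ATM and ATR signal breaks and stalled forks to CHEK1 and CHEK2, which hold the cell cycle. Many repair genes are transcribed most in S phase under E2F factors. In B cells, uracil excision and mismatch repair also take part in antibody diversification. In mantle cell lymphoma, ATM is among the genes most often mutated or deleted.

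Recovered depth was 5374226 to 17040599 reads per library, lowest with KPT at 5374226 to 7924550 reads. RNA45S5, the ribosomal RNA precursor, stood at 53819 and 66933 normalized counts in KPT replicates A and C and at 65331 in JEKO1 DMSO replicate C, against 7919 to 32274 in the other 15 libraries. The 8 B cell and mantle cell lymphoma markers were detected in every group, with a summed level of 56284 to 57257 normalized counts in JEKO1 IB and 51458 to 53324 in JEKO1 DMSO libraries. In MAVER this sum was 73005 to 74671 with PU, 80126 to 82652 with KPT, 82837 to 84083 with IB and 84089 to 85011 with DMSO. The 5 listed T cell markers summed to at most 17.9 and the 5 myeloid markers to at most 26.1. The 6 epithelial and stromal markers summed to 302 to 335 with PU, 226 to 261 with KPT, 175 to 205 with IB and 184 to 213 with DMSO in MAVER, most of it EPCAM, and to 8.94 to 34.5 in JEKO1. Whether these levels bear on the repair genes was not tested. In JEKO1 libraries labelled IB, 11 of 12 tested antigen receptor response genes (91.7%) were higher than with DMSO, against 21.9% of all genes. In MAVER 8 of 9 (88.9%) were lower with IB, against 9.65% of all genes. Every JEKO1 direction therefore holds for the labels as given. In bulk RNA, fewer cells in a given state and less RNA per cell cannot be told apart.

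The repair genes responded most widely to PU. Of the 44, 32 (72.7%) were lower with PU than with DMSO in MAVER and 1 was higher (2.27%), against 27.5% lower and 27.6% higher among all 11099 genes tested. The median log2 fold change was -0.43 over the 44 genes and 0.01 over all genes. With KPT, 20 (45.5%) were lower and 9 (20.5%) higher, against 28.5% and 27.3% of all genes, and the medians were -0.08 and -0.00. With IB in MAVER, 4 (9.09%) were higher, close to the 10.1% of all genes. None was lower by limma, against 9.65% of all genes. At an unadjusted p under 0.05, 4 were lower, and edgeR and DESeq2 also called 0. With IB in JEKO1, 11 (25%) were higher and 7 (15.9%) lower, against 21.9% and 20.2% of all 11609 genes tested. A gene was called higher or lower at a Benjamini-Hochberg adjusted p under 0.05 in limma, and "rose" and "fell" are used only of such genes. Fold changes are on the log2(normalized count + 1) scale, which understates changes of low genes. The MAVER comparisons share their DMSO libraries. PMS2, CHEK2, FANCD2, BRCA1 and XRCC6 have near-identical copies elsewhere in the genome and ERCC1 overlaps a gene on the other strand, so their counts are uncertain.

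The 44 genes together took 0.45 to 0.464% of all reads with PU, 0.581 to 0.59% with KPT and 0.605 to 0.628% with IB, against 0.605 to 0.614% with DMSO in MAVER. The PU and KPT libraries all lay below the lowest DMSO library, and the IB libraries overlapped with it. These shares weigh abundant genes most. XRCC5 alone was at 7140.2 ± 302 normalized counts with KPT and 8875 ± 257 with DMSO (SD, n = 3). With KPT the end joining, mismatch, base excision and homologous recombination genes summed to less than with DMSO. The MRN sum was higher (5333 to 5457 against 4466 to 4739), as was the checkpoint kinase sum, and the other pathway sums overlapped. In JEKO1 the share was 0.732 to 0.751% with IB and 0.714 to 0.727% with DMSO, with no overlap. There the end joining sum was 22397 to 23779.9 with IB and 20184 to 21198 with DMSO. The mismatch repair and Fanconi anemia sums were also higher. The checkpoint kinase sum was lower, at 4542 to 4592 against 5602 to 5693, as was the MRN sum. The other sums met or overlapped, and the median log2 fold change over the 44 genes was 0.02.

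**Figure D1:**
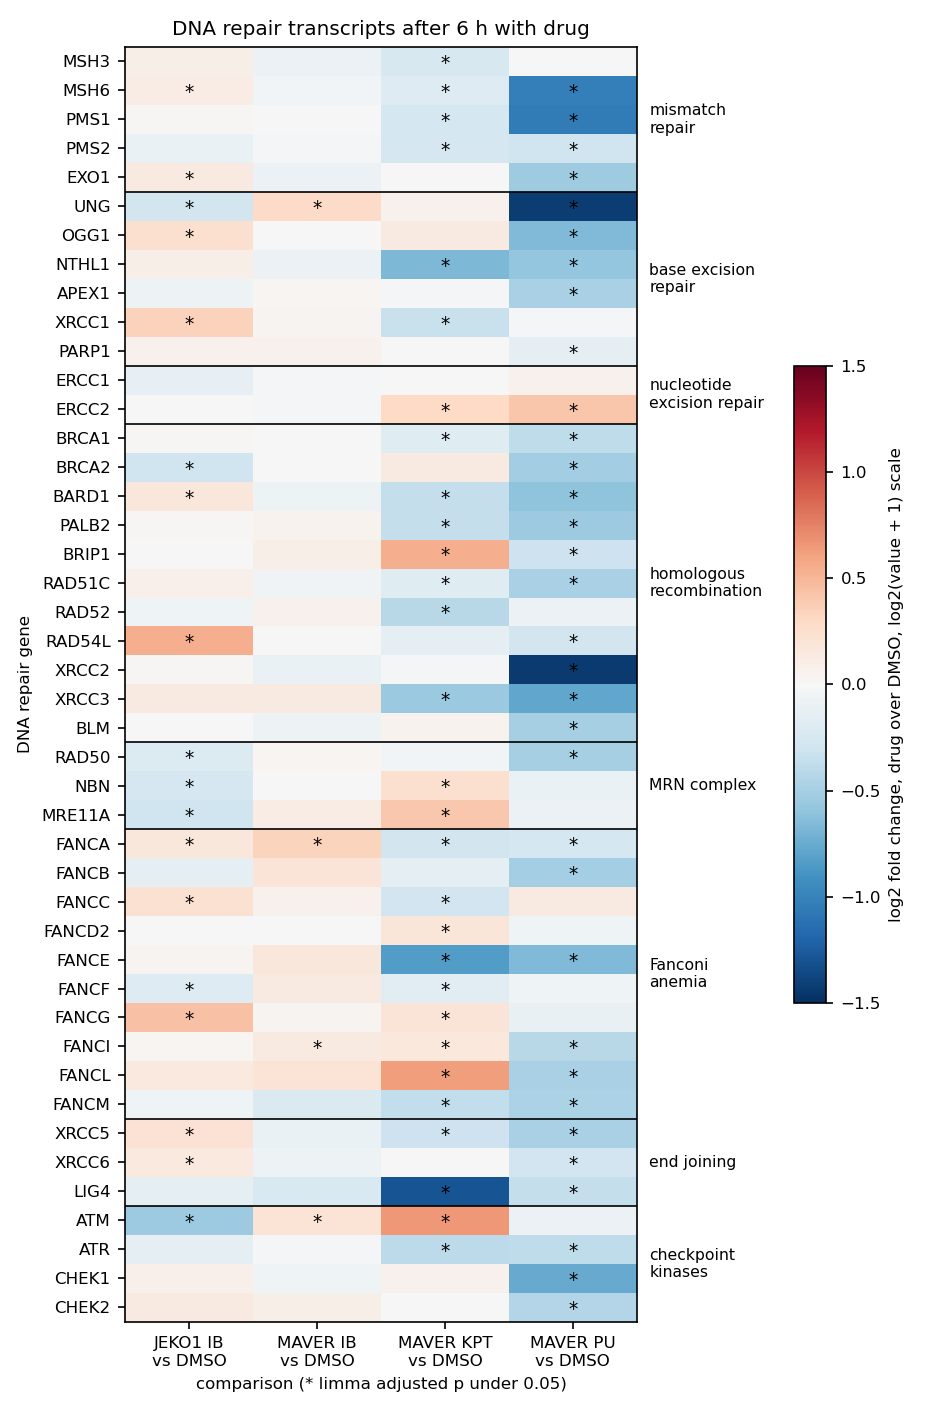
Log2 fold changes of the 44 repair genes (rows, grouped by pathway) in 4 comparisons of drug with DMSO (columns), on the log2(normalized count + 1) scale; blue is lower and red higher with drug, and an asterisk marks a limma adjusted p under 0.05. The PU column is mostly blue, with 32 genes lower and ERCC2 alone higher.

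Mismatch repair genes gave some of the deepest falls with PU. MSH6, a subunit of the complex that recognises mismatches, stood at 1700.2, 1597 and 1536 normalized counts with PU and 3049, 2738 and 2777 with KPT. Its values were 3212, 3059 and 3254 with IB and 3346, 3231 and 3195 with DMSO. The PU libraries lay far below every other library, and those with KPT lay just under the DMSO range. MSH6 fell by 1.02 ± 0.05 with PU (log2 fold change ± SE; limma adjusted p = 1.72e-21) and by 0.19 ± 0.05 with KPT (adjusted p = 0.000579). PMS1, a MutL homolog, had 167, 177 and 168 normalized counts with PU, 296, 292 and 298 with KPT, 319.8, 359.8 and 371 with IB, and 355, 340.1 and 364 with DMSO. It fell by 1.05 ± 0.08 with PU (adjusted p = 4.67e-14) and by 0.26 ± 0.08 with KPT (adjusted p = 0.00824). Without KPT replicates A and C together, which leaves 1 KPT library, the KPT fold change was -0.27 and was not called (adjusted p = 0.0591). EXO1, the exonuclease that removes the mispaired strand, fell by 0.53 ± 0.06 with PU, and PMS2, the nicking partner in MutL alpha, by 0.30 ± 0.10. MSH3, which recognises longer insertion loops, was at 437 ± 19.1 normalized counts with PU and 442 ± 30.2 with DMSO (SD, n = 3), a difference that was not called. MSH3 was lower with KPT, by 0.24 ± 0.07 (adjusted p = 0.00579). PMS2 was also lower with KPT, by 0.25 ± 0.10, a call that ended without KPT replicate A (adjusted p = 0.0833) or C (0.0503) or DMSO replicate B (0.0749) or C (0.0611). In all, 4 of 5 mismatch repair genes (80%) fell with PU and 4 of 5 with KPT, against 27.5% and 28.5% of all genes.

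Promoters are shown for UNG, MSH6, PMS1 and CHEK1, which are among the 6 members with the smallest p with PU, because many repair genes are known E2F targets. RefSeq promoter windows (GRCh38.p14, 250 bases before to 50 after an annotated start) were searched for the E2F words TTTCCCGC, TTTCGCGC, TTTGCCGC and TTTGGCGC on both strands, 4 distinct words of 8 bases. The words share letters at their ends, and a base may lie in more than 1 match. Capitals mark a match, and for a gene with several listed starts the window with the most matches is printed, or the first where none matches. UNG (chr12:109097922-109098221, plus strand) has TTTGCCGC 63 bases before the start, MSH6 (chr2:47782895-47783194, plus strand) has TTTCCCGC 3 bases after it, and PMS1 (chr2:189784200-189784499, plus strand) and CHEK1 (chr11:125625979-125626278, plus strand) have none of the words in these windows. The word was found at 1 of 2 listed starts of UNG and 1 of 4 of MSH6, and at none of the 3 listed starts of CHEK1 or the 1 of PMS1.
UNG: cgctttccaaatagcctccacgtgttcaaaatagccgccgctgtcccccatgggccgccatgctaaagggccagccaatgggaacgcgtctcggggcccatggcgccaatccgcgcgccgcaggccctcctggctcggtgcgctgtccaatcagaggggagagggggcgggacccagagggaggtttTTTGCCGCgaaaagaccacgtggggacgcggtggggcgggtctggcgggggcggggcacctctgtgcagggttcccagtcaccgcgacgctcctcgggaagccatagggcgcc
MSH6: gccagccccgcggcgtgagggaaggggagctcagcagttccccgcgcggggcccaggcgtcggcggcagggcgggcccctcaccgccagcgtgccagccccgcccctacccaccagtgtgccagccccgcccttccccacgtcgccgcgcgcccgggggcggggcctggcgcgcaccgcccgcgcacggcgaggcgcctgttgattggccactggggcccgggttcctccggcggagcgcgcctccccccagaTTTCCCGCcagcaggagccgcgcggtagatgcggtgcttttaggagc
PMS1: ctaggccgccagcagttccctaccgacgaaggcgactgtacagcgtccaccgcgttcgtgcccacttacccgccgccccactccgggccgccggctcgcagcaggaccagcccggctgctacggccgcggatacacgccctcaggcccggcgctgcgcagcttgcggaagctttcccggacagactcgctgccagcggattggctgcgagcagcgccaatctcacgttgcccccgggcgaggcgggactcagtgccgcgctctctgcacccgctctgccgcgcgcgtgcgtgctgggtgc
CHEK1: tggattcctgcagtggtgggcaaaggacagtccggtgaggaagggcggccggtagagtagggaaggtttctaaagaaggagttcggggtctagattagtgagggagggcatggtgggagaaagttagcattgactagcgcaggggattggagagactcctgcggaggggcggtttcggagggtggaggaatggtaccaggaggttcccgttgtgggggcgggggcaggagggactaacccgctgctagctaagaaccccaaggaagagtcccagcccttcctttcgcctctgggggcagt
Of the 44 members 41 had a promoter entry, all but NBN, FANCI and XRCC5, and 10 of those 41 (24.4%) held a word in at least 1 listed window. The words were present in 3.99% of the 27305 genes with an entry and in 7.03% of the 8346 of these tested in MAVER. Among pathways, 4 of 5 mismatch repair genes held a word: MSH3, MSH6, PMS2 and EXO1. The other members with a word were UNG, XRCC2, FANCA, FANCC, FANCD2 and XRCC6. The words stood in 7 of 30 members that were lower with PU (23.3%) and in 3 of 10 that were not called (30%). A match is a string of letters and not a measured binding site.

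In base excision repair, UNG had the smallest p of the 44 genes with PU. UNG encodes the uracil DNA glycosylase, which removes uracil from DNA. Its values were 557, 505 and 514 normalized counts with PU, 1472, 1573 and 1391 with KPT, 1716, 1799 and 1673 with IB, and 1425, 1361 and 1447 with DMSO. The PU libraries lay far below all others, the IB libraries lay above every DMSO library, and the KPT libraries overlapped with DMSO. UNG fell by 1.42 ± 0.05 with PU (adjusted p = 2.8e-24) and rose by 0.29 ± 0.05 with IB (adjusted p = 5.33e-05). In JEKO1 the direction with IB was the other one: 1937, 1861 and 1906 normalized counts with IB and 2228, 2375 and 2317 with DMSO, without overlap, a fall of 0.28 ± 0.04 (adjusted p = 4.12e-05).

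APEX1, the endonuclease that cuts at the abasic site left by a glycosylase, had 2977, 2852 and 2816 normalized counts with PU, 3811, 4029 and 4054 with KPT, 4047, 4197 and 4126 with IB, and 3987, 3988 and 4126 with DMSO. The 3 PU libraries lay below all others, and APEX1 fell by 0.49 ± 0.04 (adjusted p = 2.75e-13). The glycosylases OGG1 and NTHL1, which remove oxidised purines and pyrimidines, fell with PU by 0.66 ± 0.12 and 0.58 ± 0.09. NTHL1 also fell with KPT, by 0.67 ± 0.09 (adjusted p = 5.17e-08). PARP1, which senses strand breaks, fell by 0.13 ± 0.04 with PU, to 7380.0 ± 193 normalized counts, against 8086 ± 56.3 with DMSO (SD, n = 3). XRCC1, the scaffold that PARP1 recruits, followed another order. It had 417, 455 and 488 normalized counts with PU, 362, 363 and 375 with KPT, 503, 455 and 467 with IB, and 467, 457 and 457 with DMSO. The 3 KPT libraries all lay below the DMSO libraries, while the PU and IB libraries lay on both sides of the DMSO range or within it, and XRCC1 fell by 0.33 ± 0.07 with KPT (adjusted p = 0.000141). In JEKO1 its values were 916, 967 and 899.8 with IB and 720.2, 771 and 700.3 with DMSO, a rise of 0.34 ± 0.06 (adjusted p = 7.25e-05). Thus 5 of 6 base excision genes (83.3%) fell with PU, against 27.5% of all genes, and 2 of 6 (33.3%) fell with KPT, near the 28.5% of all genes.

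Of the 2 nucleotide excision repair genes, 1 rose with PU (50%, against 27.6% of all genes), too few genes to set apart from that share. ERCC2, which encodes the XPD helicase of the factor TFIIH, had 648, 674 and 713 normalized counts with PU, 651, 555 and 672 with KPT, 532, 515 and 443 with IB, and 497, 547 and 473 with DMSO. All PU and KPT libraries lay above the highest DMSO library, while IB overlapped with DMSO. ERCC2 rose by 0.42 ± 0.07 with PU (adjusted p = 5.76e-06), the sole member to do so, and by 0.30 ± 0.07 with KPT (adjusted p = 0.000595). Without KPT replicates A and C, the KPT difference was 0.14 and was not called (adjusted p = 0.285). ERCC1, a subunit of the nuclease that cuts 5′ of the lesion, was called in no comparison with DMSO, at 893 ± 21.5 normalized counts with PU and 856 ± 49.9 with DMSO in MAVER (SD, n = 3).

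**Figure D2:**
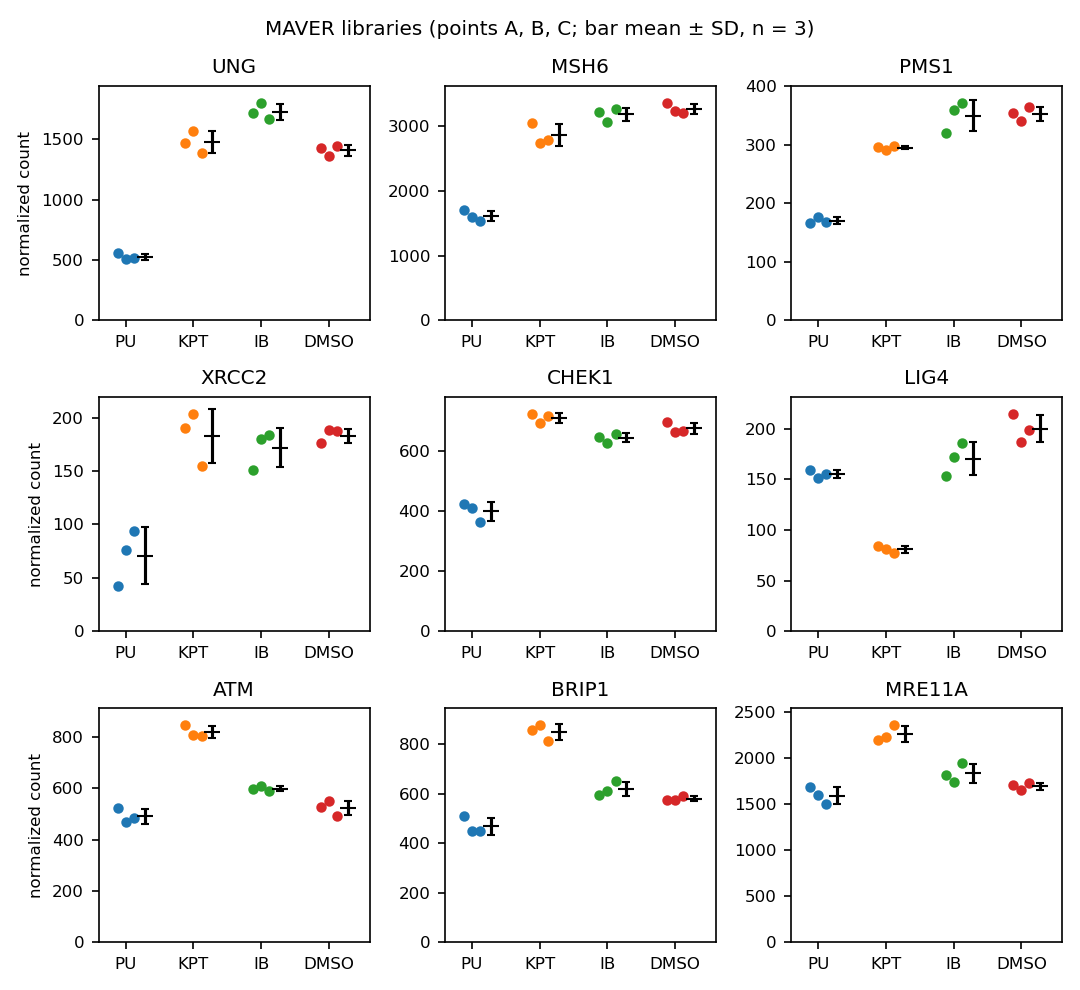
Normalized counts of 9 repair genes in the MAVER libraries with PU, KPT, IB and DMSO; points are replicates A, B and C and bars are the mean ± SD (n = 3), and each panel has its own axis from 0. UNG, MSH6, PMS1, XRCC2 and CHEK1 are lowest with PU, LIG4 is lowest with KPT, and ATM, BRIP1 and MRE11A are highest with KPT.

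Homologous recombination genes fell with PU in 10 of 11 cases (90.9%, against 27.5% of all genes), all but RAD52. XRCC2, of a recombinase paralog family and singled out after its values were seen, had the most negative fold change of the 44 genes, with 42.6, 76.5 and 94 normalized counts with PU and 176, 188 and 187 with DMSO. The PU libraries spread widely but stayed well under the DMSO libraries (log2 fold change -1.43 ± 0.16, adjusted p = 4.91e-10). XRCC3, of the same family, had 255, 270.3 and 319 normalized counts with PU, 346, 309 and 330.2 with KPT, 532, 542 and 513 with IB, and 440.3, 531 and 484 with DMSO. All PU and KPT libraries lay below the DMSO range, with falls of 0.78 ± 0.08 (adjusted p = 7.45e-11) and 0.56 ± 0.08 (adjusted p = 1.93e-07). BRCA1 and BRCA2, which direct break resection and recombinase loading, fell by 0.38 ± 0.06 and 0.52 ± 0.06 with PU. BARD1, the obligate partner of BRCA1, fell by 0.60 ± 0.07, and PALB2, which bridges the BRCA proteins, by 0.55 ± 0.08. The helicase BLM, which unwinds recombination intermediates, fell by 0.50 ± 0.05 with PU.

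BRIP1, the helicase that binds BRCA1, moved in opposite directions with the drugs. It had 509.6, 449 and 449 normalized counts with PU, 859, 877 and 815 with KPT, 595, 610.1 and 651 with IB, and 574, 577 and 592 with DMSO. The KPT libraries lay above and the PU libraries below all DMSO libraries. BRIP1 rose by 0.55 ± 0.06 with KPT (adjusted p = 1.3e-09) and fell by 0.31 ± 0.06 with PU (adjusted p = 6.27e-05). It was the 1 member of this pathway that rose with KPT, while 6 of 11 fell (54.5%, against 28.5% of all genes): BRCA1, BARD1, PALB2, RAD51C, RAD52 and XRCC3. Of those 6, the RAD51C call ended without any 1 of KPT replicates A or B or DMSO replicates A or C (adjusted p up to 0.204). The RAD52 call ended without KPT replicate A (adjusted p = 0.107) or DMSO replicate B (0.128), and the BRCA1 call without KPT replicate A (0.0602).

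In JEKO1, RAD54L, a DNA translocase that helps strand exchange, had 648, 635 and 606 normalized counts with IB and 467, 457 and 371 with DMSO. The groups did not overlap, and RAD54L rose by 0.55 ± 0.08 (adjusted p = 1.1e-05). In MAVER it had 363, 401 and 374 with IB and 369, 382 and 389 with DMSO, overlapping throughout. BRCA2 fell by 0.30 ± 0.06 with IB in JEKO1 (adjusted p = 0.000361).

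The MRN complex of MRE11A, RAD50 and NBN binds broken ends and activates ATM. With KPT 2 of its 3 genes were higher (66.7%, against 27.3% of all genes). With PU 1 was lower (33.3%, near the 27.5% of all genes), and with IB in JEKO1 all 3 were lower (100%, against 20.2%). MRE11A, its nuclease, had 1681, 1594 and 1500.4 normalized counts with PU, 2191, 2224 and 2352 with KPT, 1812, 1735 and 1947 with IB, and 1700.4, 1653 and 1726 with DMSO. The KPT libraries were above every other MAVER library, and MRE11A rose by 0.41 ± 0.05 (adjusted p = 3.07e-09). With IB all 3 libraries also exceeded the DMSO libraries, but the difference of 0.11 ± 0.05 was not called (adjusted p = 0.114). NBN rose with KPT by 0.24 ± 0.05 (adjusted p = 0.000171). RAD50, which tethers the ends, was the member of the complex called with PU, and it fell by 0.50 ± 0.05. The PU differences of MRE11A and NBN, -0.09 and -0.10, were not called, but both were called after rescaling to equal totals (adjusted p = 0.0215 and 0.0248). In JEKO1 all 3 genes fell with IB. MRE11A had 1137, 1203 and 1156 normalized counts with IB and 1453, 1413 and 1445 with DMSO, a fall of 0.30 ± 0.05 (adjusted p = 4.17e-05), and RAD50 and NBN fell by 0.21 ± 0.06 and 0.25 ± 0.06. The RAD50 call ended without the variance trend of the model (adjusted p = 0.092).

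Of 10 Fanconi anemia genes, 6 (60%) fell with PU, against 27.5% of all genes. With KPT 5 (50%) fell and 4 (40%) rose, against 28.5% and 27.3% of all genes. FANCI, which pairs with FANCD2 on crosslinked DNA, had 1952, 1946 and 2034 normalized counts with PU, 2963, 2963 and 2942 with KPT, 2858, 2871 and 2968 with IB, and 2629.7, 2673 and 2632 with DMSO. PU libraries lay below and KPT and IB libraries above all DMSO libraries. FANCI fell by 0.42 ± 0.04 with PU (adjusted p = 2.2e-11), and rose by 0.16 ± 0.04 with KPT (0.00113) and by 0.13 ± 0.04 with IB (0.0185). The IB call ended without IB replicate C (adjusted p = 0.0697), DMSO replicate A (0.0654) or DMSO replicate C (0.058).

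FANCE, a bridging subunit of the core complex, had 114, 129 and 128 normalized counts with PU, 109, 115 and 101 with KPT, 219, 221 and 221 with IB, and 181, 209 and 197 with DMSO. It fell by 0.66 ± 0.11 with PU (adjusted p = 1.99e-06) and by 0.84 ± 0.11 with KPT (adjusted p = 1.34e-08). FANCA, a core complex subunit, was the member called in all 4 comparisons with DMSO. It had 369.7, 386 and 412 normalized counts with PU, 384, 359 and 404 with KPT, 604, 624 and 529 with IB, and 464, 485 and 447 with DMSO. PU and KPT libraries lay below the DMSO libraries and IB libraries above them, with changes of -0.26 ± 0.07, -0.28 ± 0.07 and 0.33 ± 0.07 (adjusted p = 0.00289, 0.00107 and 0.000784). FANCA was also higher with IB in JEKO1 (0.17 ± 0.07, adjusted p = 0.048), with 781, 792 and 687 normalized counts against 681, 699.6 and 629 with DMSO, which overlap. That call ended without any 1 of IB replicates A or B or DMSO replicates A or C (adjusted p 0.0774 to 0.201).

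FANCL, the ubiquitin ligase of the core complex, rose by 0.63 ± 0.12 with KPT and fell by 0.49 ± 0.12 with PU. FANCM, the translocase that anchors the complex to DNA, fell with both drugs, by 0.37 ± 0.10 with KPT and 0.48 ± 0.10 with PU. FANCG, a core subunit, had 727, 716 and 684 normalized counts with IB and 542, 553 and 472 with DMSO in JEKO1. The groups stood apart, and FANCG rose by 0.44 ± 0.07 (adjusted p = 2.46e-05). With KPT, FANCG rose by 0.19 ± 0.07 and FANCD2 by 0.18 ± 0.07, and FANCF fell by 0.17 ± 0.07. Each of these 3 KPT calls ended when some single library was left out: FANCG without KPT replicate A (adjusted p = 0.0971) or DMSO replicate A (0.149), FANCD2 without KPT replicate C (0.215) or DMSO replicate B (0.217), and FANCF without KPT replicate B (0.102) or C (0.06) or DMSO replicate A (0.0974) or B (0.178).

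All 3 end joining genes fell with PU (100%, against 27.5% of all genes). With KPT 2 of 3 fell (66.7%, against 28.5%), and the most negative fold change of the pathway was that of LIG4 with KPT. LIG4, the ligase that seals the ends, had 159, 151 and 155 normalized counts with PU, 84.3, 80.8 and 77.3 with KPT, 153, 172 and 186 with IB, and 214, 187 and 199 with DMSO. The KPT libraries lay far below all others, PU libraries also lay below DMSO, and IB libraries did too, with the highest of them just under the lowest DMSO library. LIG4 fell by 1.30 ± 0.11 with KPT (adjusted p = 6.95e-13) and by 0.36 ± 0.11 with PU (adjusted p = 0.00567), while the IB difference of -0.23 ± 0.11 was not called (adjusted p = 0.152). XRCC5, the Ku80 subunit of the Ku ring that threads onto ends, had 6623, 6227 and 6094 normalized counts with PU, 7482, 7032 and 6907 with KPT, 8294, 8077 and 8556 with IB, and 9086, 8589 and 8949.7 with DMSO. It fell by 0.49 ± 0.04 with PU (adjusted p = 1.8e-13) and by 0.31 ± 0.04 with KPT (adjusted p = 1.81e-08). With IB the libraries lay under the DMSO range, but the difference of -0.10 ± 0.04 was not called (adjusted p = 0.1). In JEKO1, XRCC5 had 11465, 12196 and 12002 with IB and 10046, 9995 and 10591 with DMSO, a rise of 0.22 ± 0.04 (adjusted p = 0.000111). XRCC6, the Ku70 subunit, fell by 0.29 ± 0.04 with PU.

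The checkpoint kinases split. CHEK1, the effector kinase of ATR, had 424, 409.7 and 365 normalized counts with PU, 723, 694 and 718 with KPT, 647, 629 and 657 with IB, and 697, 665 and 668 with DMSO. PU libraries stood alone at the bottom, and CHEK1 fell by 0.76 ± 0.06 (adjusted p = 2.02e-13). CHEK2, the effector of ATM, fell by 0.44 ± 0.08 with PU. ATR fell by 0.38 ± 0.06 with PU and by 0.39 ± 0.06 with KPT, to 672 ± 37.2 and 665 ± 46.8 normalized counts, against 871 ± 34.6 with DMSO (SD, n = 3). ATM took a different course, with 524, 467 and 486 normalized counts with PU, 845, 808 and 805 with KPT, 596, 610.1 and 590.5 with IB, and 528, 549 and 492 with DMSO. The KPT libraries were highest, the IB libraries lay between them and DMSO, and PU overlapped with DMSO. ATM rose by 0.65 ± 0.06 with KPT (adjusted p = 1.72e-11) and by 0.20 ± 0.06 with IB (adjusted p = 0.0215), a call that ended without IB replicate B (0.0773) or DMSO replicate C (0.145). In JEKO1, ATM had 2415, 2353 and 2356 normalized counts with IB and 3449.9, 3417 and 3521 with DMSO. It fell by 0.54 ± 0.04 (adjusted p = 1.4e-09), the smallest p of the 44 genes in JEKO1.

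The drugs were also set against each other in MAVER. With PU against IB, 34 members (77.3%) were lower and 1 (2.27%) was higher, against 27.6% and 27.5% of all genes. UNG (-1.72 ± 0.05), MSH6 (-0.98 ± 0.05), FANCI (-0.55 ± 0.04) and APEX1 (-0.52 ± 0.04) had the smallest p (adjusted p 3.41e-27 to 4.71e-14), and in each the 3 PU libraries lay below the 3 IB libraries. With PU against KPT, 29 (65.9%) were lower and 4 (9.09%) higher, against 28.6% and 28.3% of all genes. UNG (-1.49 ± 0.05), MSH6 (-0.82 ± 0.05), FANCI (-0.58 ± 0.04) and BRIP1 (-0.86 ± 0.06) led, with adjusted p 4.4e-25 to 6.21e-15, again without overlap. The 4 higher with PU were LIG4 (0.93 ± 0.11), FANCC (0.42 ± 0.08), XRCC1 (0.30 ± 0.07) and MSH3 (0.23 ± 0.07). FANCC is a core complex subunit, and it was lower with KPT than with DMSO, as were the other 3. With KPT against IB, 19 (43.2%) were lower and 8 (18.2%) higher, against 28.2% and 27% of all genes. Leading were LIG4 (-1.06 ± 0.11), FANCE (-1.02 ± 0.11), XRCC3 (-0.69 ± 0.08) and FANCA (-0.61 ± 0.07), with adjusted p 1.45e-10 to 3.21e-09. These counts moved with the scaling. Rescaled to upper quartiles, 12 members were higher and 17 lower with KPT than with IB, beside 3229 and 2936 of all genes. Rescaled to equal totals, 7 were higher and 20 lower, beside 2774 and 3379 of all genes.

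With IB in JEKO1, the 18 called genes included ATM, RAD54L, FANCG, UNG, MRE11A and XRCC1, the 6 with the smallest p. The fold changes were modest, from -0.54 to 0.55 on the log2 scale, and 10 of the 18 calls held under every alternative tried. The count of higher genes was 6 without IB replicate A and 7 without DMSO replicate A. Over all genes these fits called 2278 and 2250 higher, against 2538 with every library. With IB in MAVER, the 4 called genes were UNG, FANCA, FANCI and ATM, and the count of higher genes was 2 without DMSO replicate C. That fit called 889 of all genes higher, against 1126 with every library. The count of lower genes was 1 without IB replicate C, where 970 of all genes were called lower, against 1071.

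The IB effect itself differed between the lines for 14 of the 44 genes, each effect taken within its own table. It was more positive in JEKO1 for 7 genes (15.9%) and more negative for 7 (15.9%), against 21.7% and 19.7% of all 10591 genes tested. ATM differed most, with an effect of -0.54 in JEKO1 and 0.20 in MAVER (difference -0.74 ± 0.07, adjusted p = 1.11e-09). UNG followed, with -0.28 in JEKO1 and 0.29 in MAVER (difference -0.57 ± 0.06, adjusted p = 3.75e-08). MRE11A differed by -0.41 ± 0.07 (adjusted p = 1.44e-05) and XRCC5 by 0.31 ± 0.05 (adjusted p = 2.86e-05). All 3 MRN genes had the more negative effect in JEKO1, and both Ku subunits the more positive one. The calls for RAD50, NBN and MSH6 ended when single libraries were left out, RAD50 and NBN for example without JEKO1 DMSO replicate C, at adjusted p = 0.0684 and 0.0663, and MSH6 without MAVER IB replicate B, at 0.0983. Because the 2 lines were normalized separately, their levels were not compared.

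**Figure D3:**
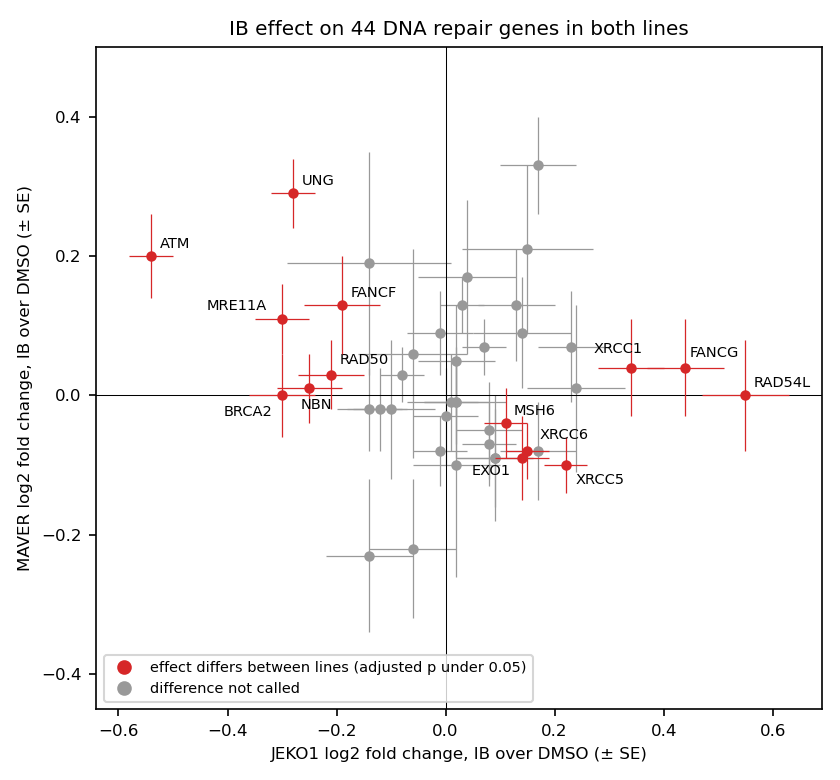
Log2 fold change of IB over DMSO in JEKO1 (horizontal) and in MAVER (vertical) for the 44 repair genes, on the log2(normalized count + 1) scale with bars of ± SE; red marks the 14 genes whose effect differed between lines at an adjusted p under 0.05. ATM and UNG lie at the upper left, negative in JEKO1 and positive in MAVER.

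Other repair genes, a list of 92 further genes of the same pathways chosen with results of these data known, are given as counts. Of 90 tested in MAVER, 45 (50%) fell with PU and 11 (12.2%) rose, against 27.5% and 27.6% of all genes, with a median of -0.17. FEN1, the flap endonuclease, had 1402, 1431 and 1366 normalized counts with PU and 2325, 2413 and 2194 with DMSO (log2 fold change -0.72 ± 0.05, adjusted p = 3e-16). The checkpoint adaptor CLSPN fell by 0.98 ± 0.07 with PU and TIPIN, of the fork protection complex, by 1.09 ± 0.08. With KPT, 28 (31.1%) fell, near the 28.5% of all genes, and 18 (20%) rose, against 27.3%. DDB2, the damage sensor of nucleotide excision repair and a p53 target, had 925, 906 and 979 normalized counts with KPT and 251, 256 and 274 with DMSO (1.84 ± 0.08, adjusted p = 2.89e-22). RMI2, a partner of BLM, rose by 1.09 ± 0.09 with KPT, and C17orf70, a Fanconi core complex partner, fell by 0.87 ± 0.08. With IB in MAVER 6 (6.67%) rose and 4 (4.44%) fell, against 10.1% and 9.65% of all genes. NEIL1, a glycosylase of oxidised bases, rose by 1.30 ± 0.19, RMI2 by 0.48 ± 0.09, and the lesion bypass polymerase POLH by 0.27 ± 0.06. With IB in JEKO1 17 of 89 (19.1%) rose and 11 (12.4%) fell, against 21.9% and 20.2% of all genes, with DDB2 at 0.64 ± 0.07, CLSPN at 0.59 ± 0.07 and RMI2 at -0.51 ± 0.06.

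Cell cycle transcripts were counted beside the repair genes. Of 40 G1/S replication genes, 39 (97.5%) fell with PU, against 27.5% of all genes, with a median of -0.74. PCNA, the sliding clamp, fell by 1.01 ± 0.04, and the helicase subunits MCM7 and MCM4 by 0.96 ± 0.04 and 1.22 ± 0.05. With KPT, 14 of these 40 (35%) fell and 9 (22.5%) rose, against 28.5% and 27.3% of all genes. With IB in MAVER 2 (5%) rose and 1 (2.5%) fell, against 10.1% and 9.65%. With IB in JEKO1 26 (65%) rose and 2 (5%) fell, against 21.9% and 20.2%. Of 40 mitotic genes, 17 (42.5%) rose and 7 (17.5%) fell with PU, against 27.6% and 27.5% of all genes. With KPT 12 (30%) rose and 17 (42.5%) fell, against 27.3% and 28.5%. With IB in MAVER 11 (27.5%) rose, against 10.1%, and in JEKO1 1 (2.5%) rose and 24 (60%) fell, against 21.9% and 20.2%. How far the share of cells in S phase bears on the repair genes was not tested.

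**Figure D4:**
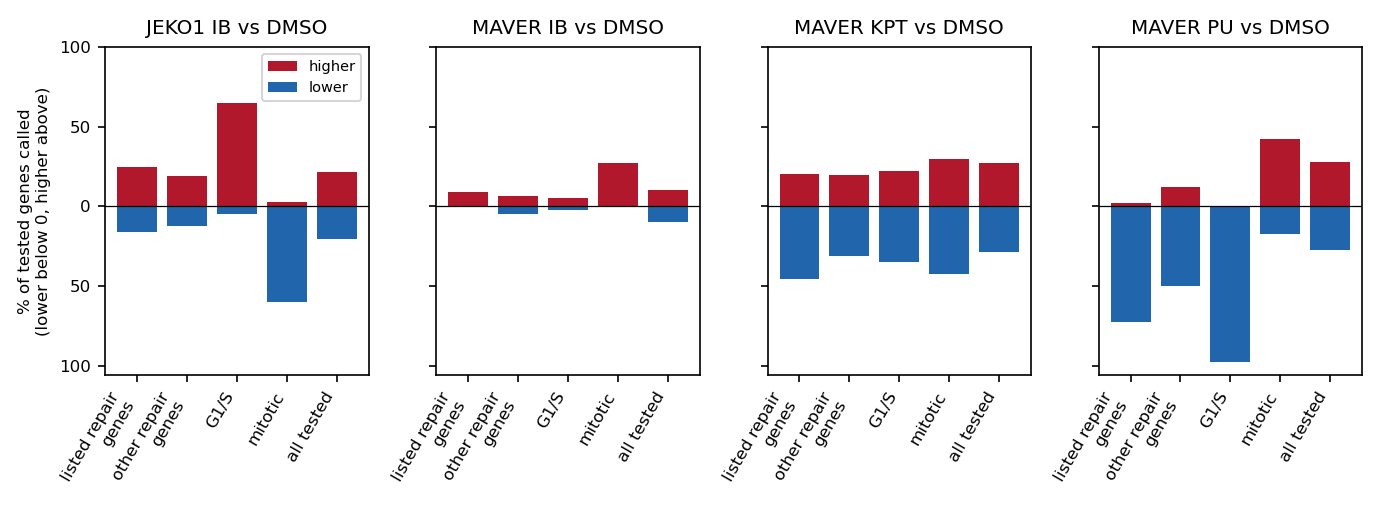
Percent of tested genes called higher (red, above 0) and lower (blue, below 0) in each comparison of drug with DMSO, for the 44 listed repair genes, the other repair genes, G1/S replication genes, mitotic genes and all tested genes. With PU the lower share is 72.7% for the listed repair genes and 97.5% for G1/S genes, against 27.5% of all tested genes.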

How the data were processed

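RNA-seq was analysed for 18 libraries in 6 groups of 3, grouped by sample title. Per the labels' protocols, TruSeq stranded libraries of total RNA were read as single-end 50 bp reads at a stated depth of 30 M, aligned with STAR, with abundance from Cufflinks and tests by DESeq2. FastQC and hg19 are named in the submitters' processing notes. No source used here names the counting program, the gene annotation or whether counting used strand. The values deposited by the authors are a signal per gene, normalized counts, in 1 table per line. Within 0.01 read, 100% of values were whole multiples of what 1 read is worth, so whole reads were recovered and summed to the depths given. The tables were normalized separately, and tests were run within a table.

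Tests used limma 3.58.1 in R 4.3.3 (lmFit, eBayes with trend) on log2(value + 1), keeping genes whose mean was 10 or more, with Benjamini-Hochberg adjustment over all genes tested. The 4 MAVER groups shared 1 fit. To compare lines, the IB effects were fitted over the 12 IB and DMSO libraries, each effect within its own table. The limma fits of the 4 comparisons with DMSO were first tested on simulated counts with 2-fold changes. Smaller changes, the other comparisons, the alternatives and the promoter search were not tested in this way. Promoters are from the RefSeq table (GRCh38.p14), and no other coordinates were used.

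The 44 members and the other lists were chosen with earlier results of these data known. Values of every library are given for the 6 members with the smallest p per comparison with DMSO, the 4 with the smallest p per direct comparison and in the difference between lines, and the member of each pathway with the smallest p. Of the other repair genes, 3 per comparison are named, by smallest p.

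The labels call the replicates biological, but not how the cultures were kept apart, so the p-values reflect only how these libraries vary. No 2 replicates agreed within sampling noise. Alternatives were pseudocounts of 0.5 and 5, no filter or a mean of at least 50, eBayes without trend, rescaling by totals or by upper quartiles, a block for the replicate letter, fits of only the groups compared, each replicate left out in turn, and KPT without replicates A and C. On the recovered reads, DESeq2 1.42.0 and edgeR 4.0.16 (quasi-likelihood test, TMM) were run. Against DMSO, edgeR called 2565 genes higher and 2358 lower with IB in JEKO1, and in MAVER 3300 and 3125 with PU, 3021 and 3150 with KPT, and 1213 and 1134 with IB.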

Additional observations from a re-analysis of the deposited data

Results flagged for a closer look

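The effect of IB against DMSO differed between JEKO1 and MAVER for 14 repair genes by the test of the difference itself (limma, adjusted p under 0.05). It was more positive in JEKO1 for 7 of 44 genes (15.9%) and more negative for 7 (15.9%). Of all 10591 genes tested, 21.7% and 19.7% were called these ways. The difference, JEKO1 minus MAVER on the log2 scale, was negative for ATM (-0.74), UNG (-0.57), MRE11A (-0.41), FANCF (-0.33), BRCA2 (-0.30), NBN (-0.26) and RAD50 (-0.24). It was positive for RAD54L (0.55), FANCG (0.41), XRCC5 (0.31), XRCC1 (0.30), XRCC6 (0.24), EXO1 (0.23) and MSH6 (0.15). The calls for RAD50, NBN and MSH6 ended when single libraries were left out. For UNG, the libraries with IB lay below all DMSO libraries in JEKO1 and above all of them in MAVER, and for ATM likewise. The sign of each value rests on the JEKO1 labels as given.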

How the results depend on the processing

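No called member changed direction under any alternative run. With PU against DMSO all 33 calls held under all 17 alternatives, and with PU against IB 32 of 35 did. With KPT against DMSO 20 of 29 calls held under all 18 alternatives, with KPT against IB 17 of 27, and with PU against KPT 28 of 33. With IB, 10 of 18 calls held in JEKO1 and 2 of 4 in MAVER, and 11 of 14 held for the difference between lines. The count of members higher with IB in JEKO1, 11 as reported, was 5 without the variance trend and 7 with DESeq2. Of all 11609 genes tested, these settings called 2091 and 2191 higher, against 2538 as reported. The member count was 6 to 10 when 1 replicate was left out, and the count over all genes 2211 to 2387. In MAVER the count higher with IB was 2 to 4 and the count lower 0 to 1 when 1 replicate was left out. Over all genes these counts were 889 to 1062 and 804 to 970, against 1126 and 1071 as reported. Without KPT replicates A and C together, the lone KPT library was assumed to vary like the other groups. With KPT against DMSO and against IB, fewer members and fewer of all genes were called in that fit. Its counts of calls are therefore not given. With the replicate block, 12 members were higher and 9 lower with IB in JEKO1, and the difference between lines had 8 and 7. In MAVER, the block gave 1 higher and 32 lower with PU, 9 and 20 with KPT, and 4 and 0 with IB. Same-lettered libraries deviated together little (correlations of -0.0918 to 0.118), so the letters were not taken to pair them. The highest correlation was that of replicate C in JEKO1. There the block raised the calls over all genes from 2538 higher and 2341 lower to 2819 and 2688. In MAVER the block lowered both counts for each drug against DMSO. Whether the JEKO1 letters mark pairs is not settled by these values. The KPT libraries were the shallowest, at 5374226 to 7924550 reads. Whether depth limited the precision for low members was not tested.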
